A study of Rattus norvegicus with 2 samples.

Results

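The immediate early genes described here were Fos, Fosb, Jun, Junb, Jund, Egr1, Ier2, Atf3, Dusp1 and Nr4a1, which are 10 of the 32623 genes in the count tables. They were chosen by symbol, and each symbol matched 1 row. The study profiled dissociated cells of the rat cochlear duct, the part of the inner ear that holds the hearing epithelium, by droplet-based single-cell RNA sequencing, to follow the cells of the greater epithelial ridge as the cochlea matures. The P1 group was Sprague-Dawley rats at postnatal day 1 and the P7 group was rats of that strain at postnatal day 7, with no other treatment named for either. Cochleae were pooled within an age, minced, and digested with collagenase, papain and DNase in a warm shaking bath, and dead cells were removed with magnetic beads before loading. Each age was 1 library, so age and library cannot be told apart, no test between the ages was possible, and every interval given is an exact 95% interval that covers counting error only.

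Immediate early genes are transcribed within minutes of a stimulus, such as a growth factor, depolarisation or stress, from transcription factors that the cell already holds. The Fos and Jun proteins pair to form AP-1, which binds DNA and sets the next wave of transcription, and Dusp1 is a phosphatase that switches off the kinases that started the response. The same genes are known to be induced when tissue is digested into single cells. The levels may thus hold both what the cells had in the animal and what they made during preparation, and these cannot be told apart here.

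The 2 libraries held 14068 (P1) and 14501 (P7) barcodes, of which 12779 and 12581 passed the limits on genes, UMIs and mitochondrial share, with a median of 6565 and 6878 UMIs per cell. A UMI marks 1 captured transcript, and levels are given as UMIs per 1000000 UMIs of the library or class (CPM). The labels call all cells greater epithelial ridge cells, but only 230 P1 and 165 P7 cells passed the gate on epithelial markers, and most gated cells carried markers of glia, fibroblasts or other mesenchyme. Gates are called by their markers with the ending "-like", and 10 of them held at least 50 cells in each library. They took 54.9% of P1 and 66.5% of P7 cells together with the smaller gates. RNA of markers outside their own gate, which free RNA can give, was looked at after thinning to 2000 UMIs. A UMI of the macrophage gene C1qb was in 0.420% of P1 and 1.38% of P7 cells outside the macrophage-like cells, and one of the endothelial gene Plvap in 0.554% and 1.00% outside the endothelial-like cells. The fibrocyte gene Otor was in 68.2% and 67.9% of cells outside its own gate, but other mesenchyme carried the markers of that gate too, with a sum of 9289 and 11384 CPM in Aldh1a2-Irx3 mesenchyme-like cells, so free RNA and expression cannot be told apart for it.

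Together, the immediate early genes made up 0.380% of all UMIs at P1 and 0.165% at P7. Their summed level was 3798 CPM in the P1 library and 1645 CPM in the P7 library, a 2.31-fold lower level at P7 (log2 ratio -1.21, interval -1.22 to -1.20). Of the 10 genes, 9 were lower at P7, and 5 of them (Fos, Junb, Egr1, Ier2 and Atf3) were at least 2-fold lower, against 6.57% of the 8222 genes that reached 10 CPM in either library. Nr4a1 was the 1 gene that was higher, and it was at least 2-fold higher, as were 9.74% of the 8222 genes. Glia-like cells, 941 at P1 and 2926 at P7, held 454 of its 2120 UMIs at P1 and 3866 of its 6080 at P7. The part of this larger share of glia-like cells in the Nr4a1 difference over all cells was not tested. The median log2 ratio of those 8222 genes was 0.13, so that, relative to the median gene, each lower gene lay 0.13 further down and Nr4a1 0.13 less far up than stated.

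**Figure D1:**
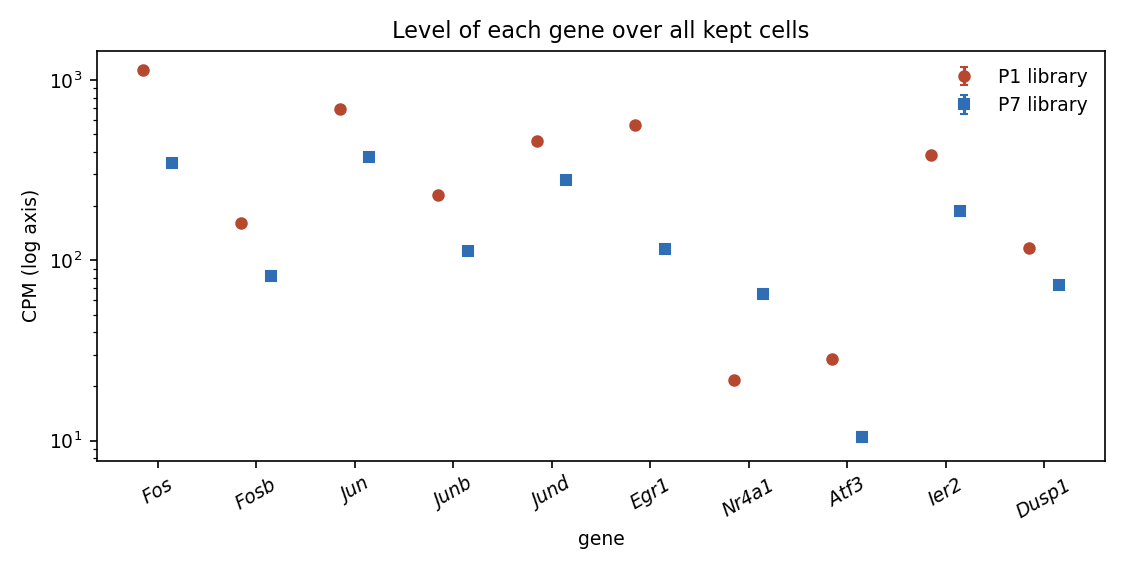
Level of each immediate early gene over all kept cells of the P1 library (circles) and the P7 library (squares), in CPM on a log axis; bars are exact 95% counting intervals and are mostly hidden by the points. All genes but Nr4a1 lie lower at P7, with the widest gap for Egr1 (562 against 115 CPM), while Nr4a1 lies higher (21.6 against 65.3 CPM).

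Among the AP-1 genes, Fos, the partner that must pair with a Jun protein to bind DNA, stood at 1141 CPM at P1 and 345 CPM at P7 (log2 ratio -1.72, interval -1.74 to -1.71). Its paralogue Fosb was at 161 and 81.9 CPM, a log2 ratio of -0.97, just short of a 2-fold difference. The Fos genes were therefore both lower at P7, Fos by the larger factor (3.30-fold against 1.96-fold). Jun, which can bind DNA as a pair with itself, was at 696 and 374 CPM (log2 ratio -0.89). Junb was at 229 and 112 CPM (log2 ratio -1.03, interval -1.06 to -0.99), on the edge of a 2-fold difference. Jund, the Jun gene known for its steady expression in resting cells, was at 461 and 279 CPM, and its log2 ratio of -0.72 was the smallest difference of the AP-1 genes.

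Egr1, a zinc-finger transcription factor induced through serum response factor, was at 562 CPM at P1 and 115 CPM at P7, which was 4.88-fold lower (log2 ratio -2.29, interval -2.32 to -2.26) and the largest difference of the 10. Atf3, a stress-induced factor of the ATF/CREB family, was at 28.3 and 10.5 CPM (log2 ratio -1.43, interval -1.54 to -1.33). Nr4a1, an orphan nuclear receptor, ran the other way, at 21.6 CPM and then 65.3 CPM (log2 ratio 1.59, interval 1.52 to 1.67). Its close relative Nr4a2, named here after its values were seen, was at 44.8 and 22.4 CPM. Over all cells, with the shares of the gates not held equal, the 2 receptors thus moved in opposite directions between the libraries. Ier2, a nuclear protein of the early response, was at 382 and 189 CPM (log2 ratio -1.02, interval -1.05 to -0.99), also on the edge of a 2-fold difference. Dusp1 was at 117 and 72.5 CPM (log2 ratio -0.69), the smallest difference of all.

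The sequences upstream of the start sites are shown because several of these genes moved together and cyclic AMP response elements (CRE), bound by CREB, and CArG boxes, bound by serum response factor, are textbook elements of immediate early promoters. RefSeq promoters (build GRCr8) were matched for 7 of the 10 genes, Fosb, Junb, Jund, Egr1, Ier2, Dusp1 and Nr4a1, and no entry was found for Fos, Jun and Atf3. In the 250 bases before the start site, both strands were searched for the CRE (TGACGTCA), its half-site (TGACG, which every CRE also holds), the AP-1 site (TGANTCA) and the CArG box. Printed 5′ to 3′ on the strand of the gene, with every match to these motifs in capitals, are the promoter with CArG boxes and the promoters with a whole CRE.
Egr1 (chr18:26736828-26737077, plus strand): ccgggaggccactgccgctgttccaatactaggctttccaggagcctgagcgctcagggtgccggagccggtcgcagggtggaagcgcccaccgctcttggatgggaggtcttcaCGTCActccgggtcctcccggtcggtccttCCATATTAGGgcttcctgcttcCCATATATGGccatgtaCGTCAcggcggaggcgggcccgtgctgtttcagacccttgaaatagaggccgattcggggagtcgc
Dusp1 (chr10:17184603-17184852, plus strand): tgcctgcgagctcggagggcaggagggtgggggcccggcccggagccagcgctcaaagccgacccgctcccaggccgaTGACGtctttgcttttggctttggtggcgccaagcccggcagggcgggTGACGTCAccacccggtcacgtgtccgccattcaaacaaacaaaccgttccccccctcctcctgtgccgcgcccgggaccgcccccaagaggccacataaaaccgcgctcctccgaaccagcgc
Ier2 (chr19:40399123-40399372, plus strand): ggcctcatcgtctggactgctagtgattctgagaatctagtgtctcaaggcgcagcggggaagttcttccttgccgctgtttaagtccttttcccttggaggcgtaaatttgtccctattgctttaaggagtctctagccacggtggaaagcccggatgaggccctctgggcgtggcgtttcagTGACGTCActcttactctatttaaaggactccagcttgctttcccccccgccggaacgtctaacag
Jund (chr16:18769772-18770021, minus strand): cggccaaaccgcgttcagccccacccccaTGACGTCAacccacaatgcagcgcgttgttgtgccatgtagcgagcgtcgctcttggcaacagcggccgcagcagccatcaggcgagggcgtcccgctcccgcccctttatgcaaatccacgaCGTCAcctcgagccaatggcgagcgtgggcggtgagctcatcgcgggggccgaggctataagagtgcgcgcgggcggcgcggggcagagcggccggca
A whole CRE was in 3 of the 7 promoters (Jund, Ier2 and Dusp1) and in 1.59% of all 33469 promoters of the table. The half-site was in 6 of 7, with Nr4a1 holding 4 copies and Fosb none, and in 18.2% of all promoters. CArG boxes were in Egr1 alone, which had 2, and in 1.5% of all promoters, and the AP-1 site was in none of the 7 and in 6.34% of all. These matches describe letters and not bound sites. The promoters with a whole CRE belonged to genes with log2 ratios of -0.72 (Jund), -1.02 (Ier2) and -0.69 (Dusp1). The promoter with CArG boxes belonged to 1 gene, Egr1 (-2.29). Fos (-1.72), Jun and Atf3 had no entry, and whether these motifs bear on the ratios was not tested.

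Within the gates the same direction was seen in most, but not all, combinations of gene and class. Of the 100 combinations of 10 genes and 10 gates, 83 were lower at P7 and 55 were at least 2-fold lower. The share of all genes tested that was at least 2-fold lower ran from 5.45% to 25.9% by gate, with neuron-like cells at the upper end. The genes tested had to reach 10 CPM with at least 20 UMIs, a minimum not set for the 10 genes. Atf3 in Otor-high fibrocyte-like cells (5.27 and 1.66 CPM) was counted although below it. The counting interval lay below 0 in 78 and above 0 in 10, of which 6 were Nr4a1. The summed level was lower at P7 in all 10 gates and at least 2-fold lower in 7. With a stricter gate of 4 markers it was at least 2-fold lower in 5 of 9, and with clusters in place of gates it was lower in 8 of 9, the log2 ratio in neuron-like clusters being 0.0095. Egr1 was at least 2-fold lower in 10 of 10 gates and Fos in 9 of 10, Otor-high fibrocyte-like cells being the exception with a log2 ratio of -0.90. Atf3 was at least 2-fold lower in 8 gates, Jun and Junb in 7 each, Fosb and Ier2 in 5 each, Jund in 3 and Dusp1 in 1. The gates keep cells rich in their markers and left 42.6% of P1 and 30.4% of P7 cells without a gate, and in those ungated cells the sum was 4236 and 1496 CPM.

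**Figure D2:**
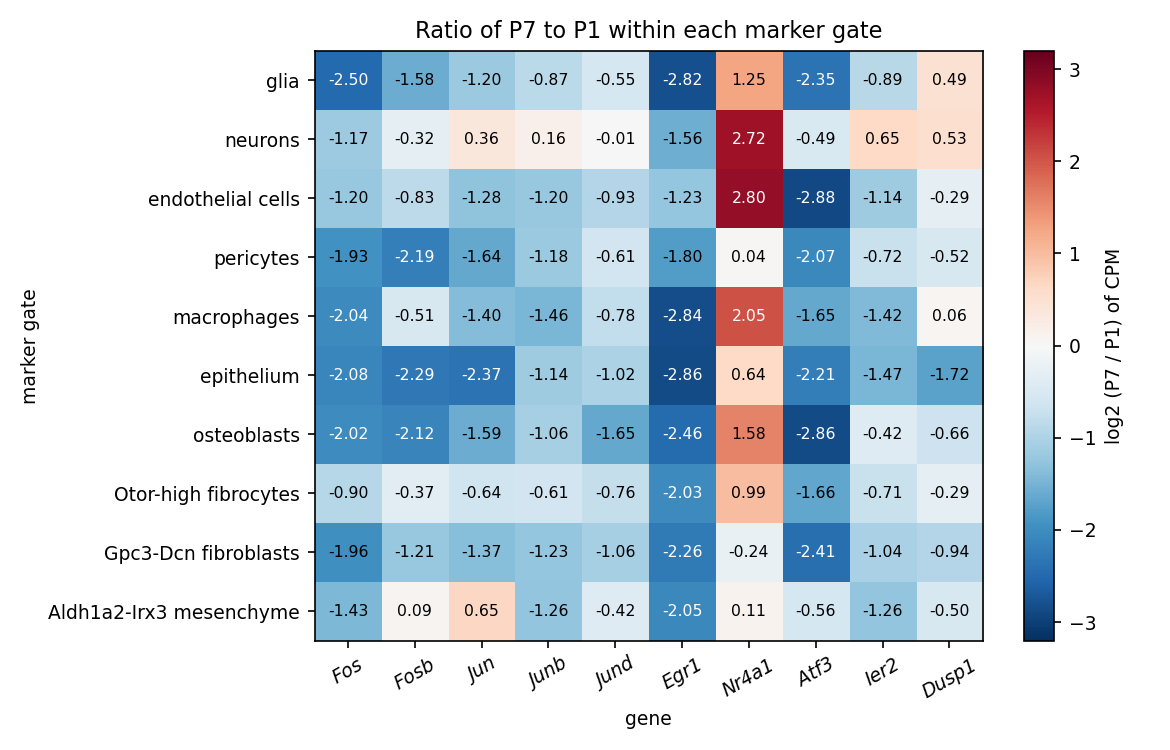
Log2 ratio of P7 to P1 of each immediate early gene (columns) within each marker gate (rows), with blue for lower and red for higher at P7. The Egr1 column is blue throughout, from -2.86 in epithelium to -1.23 in endothelial cells, the Nr4a1 column is red in 9 of 10 rows, and Jun is red in neurons (0.36) and in Aldh1a2-Irx3 mesenchyme (0.65).

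Glia-like cells (941 at P1 and 2926 at P7, with Mbp and Pmp2 among the leading genes) had the highest summed level at P1, 5941 CPM, and 1922 CPM at P7. Of the 10 genes, 5 were at least 2-fold lower, against 9.59% of the genes tested in these cells. Fos made the largest contribution, at 2836 and 503 CPM (log2 ratio -2.50), and Egr1 was at 819 and 116 CPM (log2 ratio -2.82). Both were higher in glia-like cells than over the whole P1 library. Atf3 was at 141 and 27.5 CPM (log2 ratio -2.35). Against this, Nr4a1 was at 88.6 and 211 CPM (log2 ratio 1.25, interval 1.11 to 1.40), and glia-like cells had its highest level in both libraries. Dusp1 was also higher at P7 in these cells, at 36.3 and 51.0 CPM (log2 ratio 0.49, interval 0.26 to 0.72).

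Neuron-like cells were few at P7 (69 against 460) and differed in depth, with a median of 17795 UMIs per cell at P1 and 6725 at P7. In them 2 of the 10 genes, Fos and Egr1, were at least 2-fold lower, against 25.9% of all genes tested, and the median log2 ratio of all genes was -0.25, so that this count stood near the background. Fos was at 901 and 400 CPM (log2 ratio -1.17) and Egr1 at 286 and 97.1 CPM (log2 ratio -1.56). Another 3 genes had intervals above 0. These were Jun (241 and 309 CPM, log2 ratio 0.36), Ier2 (89.3 and 140 CPM, log2 ratio 0.65) and Nr4a1 (24.4 and 161 CPM, log2 ratio 2.72). The gate held other markers beside its own, and more so at P7. Its 8 neuronal markers summed to 9151 CPM at P1 and 2299 CPM at P7, with none at 0. The 7 glial markers summed to 1106 and 4953 CPM, beside 5947 and 16161 CPM in the glia-like cells themselves, and the 6 markers of Otor-high fibrocytes to 1145 and 4136 CPM, with none of either list at 0. At P7 both of these sums were thus above that of the neuronal markers. The part of RNA from other cell types in the Jun, Ier2 and Nr4a1 levels of neuron-like cells was not tested.

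In endothelial-like cells (158 and 199 cells, led by Plvap, Tie1 and Cdh5), 6 of the 10 genes were at least 2-fold lower at P7, against 5.87% of all genes tested. Atf3 differed most among the lower genes, with 138 and 18.7 CPM (log2 ratio -2.88, interval -3.46 to -2.35). Egr1 was lower in these cells than in any other of the 10 gates at P1, at 159 CPM, and was at 68.0 CPM at P7. Dusp1 had its highest levels here, 319 and 262 CPM, with a small difference between the ages (log2 ratio -0.29, interval -0.47 to -0.10). Nr4a1 was at 7.38 and 51.6 CPM (log2 ratio 2.80, interval 1.93 to 3.81), while the 7 glial markers summed to 70.7 and 434 CPM in these cells, with none at 0, and their part in it was not tested.

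Pericyte-like cells (343 and 319, led by Rgs5 and Kcnj8) had 6 genes at least 2-fold lower, against 6.18% of all genes tested. Fosb had a log2 ratio of -2.19 there, at 341 and 74.9 CPM, and Jun one of -1.64, at 1335 and 427 CPM. Nr4a1 did not differ beyond counting error in pericyte-like cells, at 35.1 and 36.1 CPM (log2 ratio 0.04, interval -0.44 to 0.52). Macrophage-like cells (161 and 181, led by C1qb and Lyz2) also had 6 genes at least 2-fold lower, against 5.82% of all genes tested. Egr1 was at 434 and 60.4 CPM in them (log2 ratio -2.84) and Junb at 573 and 209 CPM (log2 ratio -1.46). Dusp1 stayed within counting error in macrophage-like cells, at 194 and 203 CPM (log2 ratio 0.06, interval -0.19 to 0.31).

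Epithelium-like cells, the gate nearest to the tissue the labels name (led by Oc90, Epcam and Epyc), had the most genes past the limit. There 9 of 10 were at least 2-fold lower at P7, against 7.74% of all genes tested, and the sum was 3939 CPM at P1 and 1110 CPM at P7 (log2 ratio -1.83). Jun was at 1076 and 208 CPM (log2 ratio -2.37), Egr1 at 378 and 52.0 CPM (log2 ratio -2.86), and Fosb at 369 and 75.6 CPM (log2 ratio -2.29). This was the 1 gate with Dusp1 past the limit, at 105 and 31.9 CPM (log2 ratio -1.72). Nr4a1 was at 15.5 and 24.2 CPM, with an interval that held 0. At P7 the summed level was the lowest of the 10 gates, below that of Otor-high fibrocyte-like cells (1314 CPM) with intervals that did not meet.

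**Figure D3:**
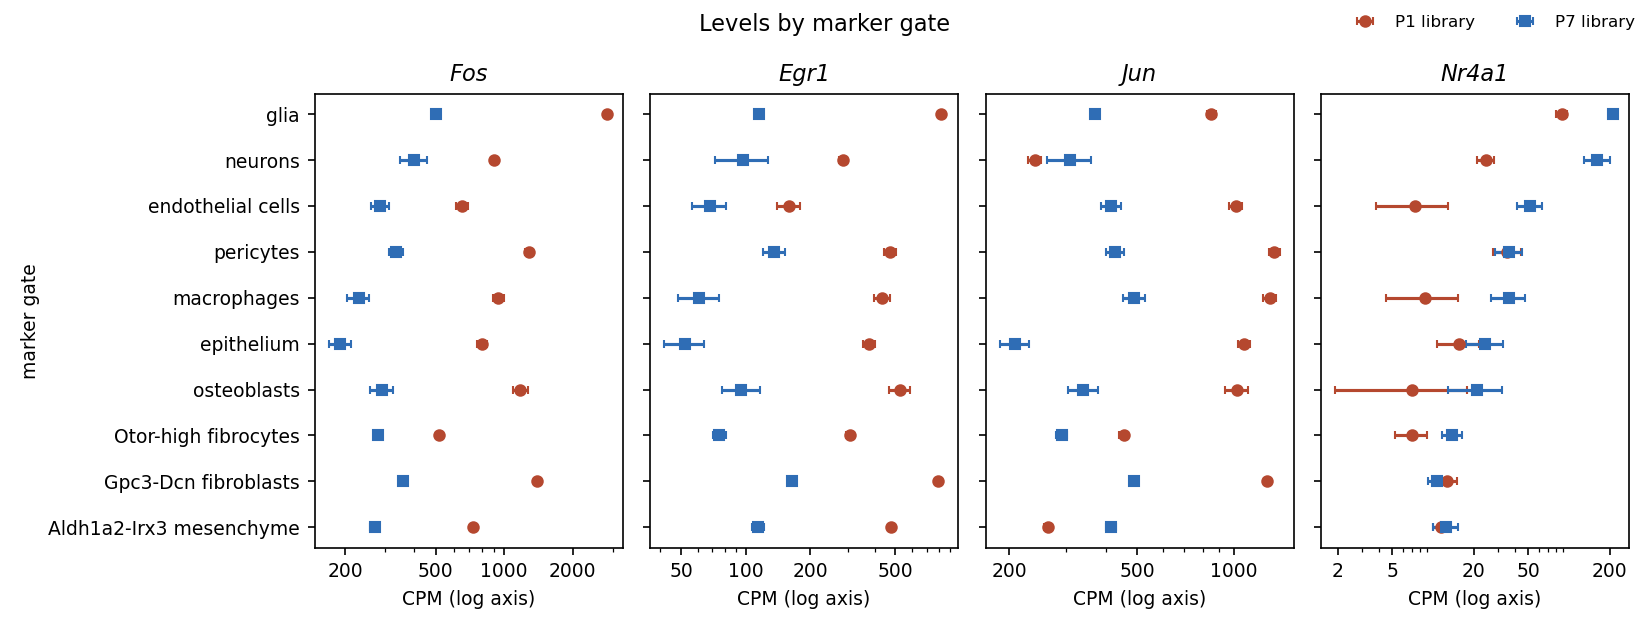
Level of Fos, Egr1, Jun and Nr4a1 in each of 10 marker gates in the P1 library (circles) and the P7 library (squares), in CPM on a log axis with exact 95% counting intervals. Fos and Egr1 lie lower at P7 in every gate, Jun crosses over in neurons and Aldh1a2-Irx3 mesenchyme, and Nr4a1 is highest in glia at both ages (88.6 and 211 CPM).

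The mesenchymal gates differed among themselves. In Gpc3-Dcn fibroblast-like cells (1398 and 2322 cells) 8 of 10 genes were at least 2-fold lower, against 7.5% of all genes tested, and Fos was at 1398 and 360 CPM (log2 ratio -1.96). Nr4a1 was lower at P7 in this gate alone, but within counting error (12.6 and 10.7 CPM, log2 ratio -0.24, interval -0.57 to 0.10). Osteoblast-like cells (60 and 92) had 7 genes at least 2-fold lower, against 8.09% of all genes tested. Jund had its largest difference of the 10 gates there (625 and 199 CPM, log2 ratio -1.65). The 6 osteoblast markers summed to 4558 CPM at P1 and 1602 CPM at P7 in these cells. The markers of Otor-high fibrocytes summed to 2406 and 5367 CPM and those of Gpc3-Dcn fibroblasts to 2847 and 3407 CPM. Dividing cells made up 26.7% and 7.61% of the gate. The part of these shifts in the differences of osteoblast-like cells was not tested. In Otor-high fibrocyte-like cells (1117 and 1169) just 2 genes, Egr1 and Atf3, were at least 2-fold lower, against 5.49% of all genes tested. Atf3, at 5.27 and 1.66 CPM, was below the 10 CPM that the genes tested had to reach. The Fos level of these cells was the lowest of the 10 gates at P1 (519 CPM) and stood at 277 CPM at P7.

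Aldh1a2-Irx3 mesenchyme-like cells (2087 and 830) had 4 genes at least 2-fold lower, against 5.45% of all genes tested, and these were Fos, Junb, Egr1 and Ier2. Jun was higher at P7 in this gate, 264 against 415 CPM (log2 ratio 0.65, interval 0.58 to 0.72), while Junb was at 231 and 96.4 CPM (log2 ratio -1.26). These cells were thus among the lowest in Jun at P1, above neuron-like cells alone, and took rank 5 of 10 at P7, where their level did not differ beyond counting error from that of endothelial-like cells (416 CPM). Fosb stayed within counting error, at 45.3 and 48.4 CPM (log2 ratio 0.09, interval -0.09 to 0.28). The leading genes of the gate included Ccn3 and Scg3 at P1 but not at P7, while Aldh1a2 and Calb2 were among them at both ages. The part of a different mix of cells at the 2 ages in the Jun difference was not tested.

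The spread between gates was wider at P1 than at P7. The summed level ran from 2025 CPM in neuron-like to 5941 CPM in glia-like cells at P1, and from 1110 CPM in epithelium-like to 1971 CPM in pericyte-like cells at P7. At P7 the neighbours pericyte-like and glia-like cells did not differ beyond counting error, nor did Gpc3-Dcn fibroblast-like, endothelial-like and macrophage-like cells from each other in turn. Fos was highest in glia-like cells in both libraries, whereas Dusp1 was highest in endothelial-like cells in both and lowest in glia-like cells at P1. The genes whose pattern over the 10 gates was most like the mean of the 10 immediate early genes were Cdc42se1, Gadd45b, Crip1, Pttg1ip and Erp44 at P1 (Pearson r of log2(CPM + 5) from 0.84 to 0.85, of 5032 genes). At P7 they were Cfl1, Cd48, Bcl2l12, Nudt21 and Tacc1 (r from 0.91 to 0.93, of 4898 genes), and no gene was on both lists. The 10 points of each r share a library and differ in cell number, so these values are a description.

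Cells that carried dividing-cell markers had less immediate early RNA than the other cells of their gate in the 5 combinations of gate and library with at least 50 dividing cells. In glia-like cells the sum was 5153 CPM in 69 dividing and 6048 CPM in 872 other cells at P1, and 1804 and 1949 CPM at P7. In Gpc3-Dcn fibroblast-like cells it was 4152 and 5456 CPM at P1 and 1570 and 1904 CPM at P7. In Aldh1a2-Irx3 mesenchyme-like cells it was 2045 and 2639 CPM at P1. The counting intervals did not meet in any of these 5 contrasts, but cells of 1 library are not replicates. The order was not general. In 4 of 14 combinations with fewer dividing cells, the other cells stood below the gate as a whole, as in P1 neuron-like cells, where the 439 other cells were at 1945 CPM and all 460 at 2025 CPM. The level also moved with UMI content. In glia-like cells at P1 it was 6377 CPM in cells under 5000 UMIs, 5835 CPM from 5000 to 10000 and 5411 CPM above, whereas in Gpc3-Dcn fibroblast-like cells it was 4832, 5478 and 4888 CPM over the same bins, with no such order. The part of UMI content in the differences between dividing and other cells was not tested.

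To count genes per cell at 1 depth, every cell was thinned to 2000 UMIs, which left out 252 P1 and 711 P7 cells. Fos was then detected in 67.6% of P1 and 45.5% of P7 cells (84.6% and 74.3% before thinning). Egr1 was detected in 54.5% and 18.6%, and 76.3% and 42.1% before thinning. Jun was detected in 54.1% and 48.1% (77.4% and 77.1% before thinning), and Nr4a1 in 4.40% and 12.0% (12.6% and 24.4%). Thus 9 of 10 genes were seen in a smaller share of cells at P7, and Nr4a1 in a larger one. No class is known to lack these genes as a set, so the shares have no negative class beside them. Each of the 10 genes had UMIs in each of the 10 gates in both libraries. Among the smaller gates, Nr4a1 had 0 UMIs in 20 P1 hair cell-like cells (of 300852 UMIs, upper bound 12.3 CPM), and the other zeros were in neutrophil-like and melanocyte-like gates of under 10 cells. The smallest sum among gates of at least 50 cells was 922 CPM, in 89 erythroid-like cells at P7.

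High counts were rarer at P7. At 2000 UMIs per cell the Fos count reached 34 in a P1 cell and 10 in a P7 cell, and its variance over its mean was 4.50 at P1 and 1.54 at P7, where 1 is what pure counting gives. The same quantity was 3.29 and 1.23 for Fosb and 3.28 and 1.46 for Jun. Nr4a1 ran the other way, with 1.15 and 1.48. This quantity also depends on the mean level, which differed between the libraries. It was taken over all cells, so differences between gates enter it too. The part of either in these values was not tested. A median of 3 of the 10 genes was detected per cell at P1 and 2 at P7. At least 5 were detected in 31.2% of 12527 P1 cells (interval 30.4% to 32.0%) and in 8.89% of 11870 P7 cells (8.38% to 9.41%), and at least 8 in 205 P1 and 9 P7 cells. None was detected in 5.05% of P1 and 8.08% of P7 cells.

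**Figure D4:**
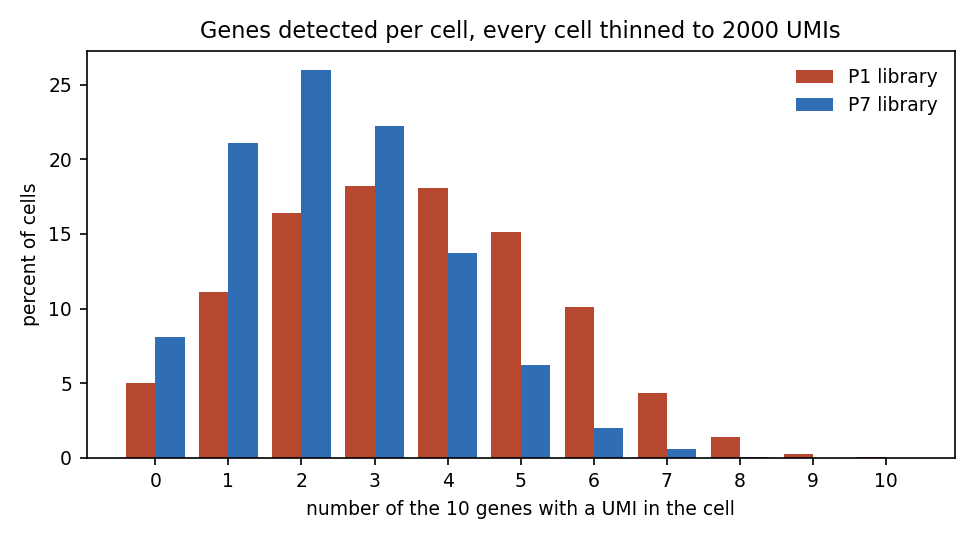
Percent of cells by the number of the 10 immediate early genes with a UMI, each cell thinned to 2000 UMIs, for the P1 library (red bars) and the P7 library (blue bars). The P1 bars peak at 3 genes (18.2% of cells) and the P7 bars at 2 (26.0%), and 31.2% of P1 but 8.89% of P7 cells lie at 5 or more.

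The share of cells with at least 5 genes was lower at P7 in all 10 gates. It was highest at P1 in pericyte-like cells (51.8%, interval 46.3% to 57.2%), followed by macrophage-like (47.4%), Gpc3-Dcn fibroblast-like (44.9%) and glia-like cells (39.1%). At P7 these gates stood at 15.7%, 10.8%, 9.34% and 13.9%. The lowest share at P1 was in neuron-like cells (13.6%), where it was 5.17% of 58 cells at P7 with intervals that met (10.6% to 17.2% and 1.08% to 14.4%). Epithelium-like cells stood at 27.1% and 6.67%. None of the 10 genes was found in 14.9% of P1 epithelium-like cells, the largest such share of the gates at that age.

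Co-detection asks whether 2 genes were found in the same cells more often than their separate shares in each gate would give, computed within gates and summed. All 45 pairs had a ratio above 1 in both libraries, with a median of 1.20 at P1 and 1.11 at P7, and 35 of the 45 were higher at P1. Some of these ratios lay close to 1, the lowest being 1.01 for Jund with Nr4a1 at P1 and 1.00 for Jun with Nr4a1 at P7. With only cells under 10% mitochondrial UMIs, 45 pairs at P1 and 39 at P7 were above 1, and with called doublets removed 45 and 42. The highest were Dusp1 with Nr4a1 at P1 (1.61, 58 cells against 36.1 expected) and Atf3 with Dusp1 at P7 (1.35, 43 cells against 31.8 expected). Among abundant pairs, Fos and Egr1 were found together in 2770 P1 cells against 2339 expected (1.18) and in 801 P7 cells against 723 expected (1.11).

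**Figure D5:**
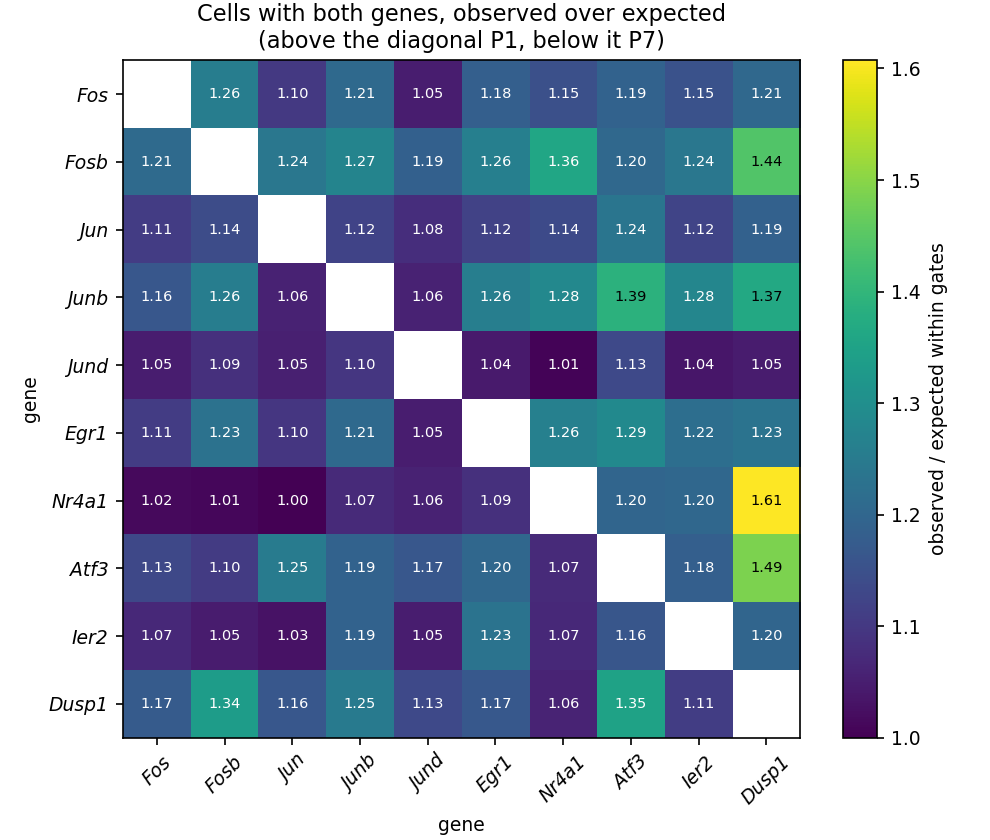
Number of cells with both genes over the number expected from their shares within each of 10 gates, for all pairs of immediate early genes, at P1 above the diagonal and at P7 below it. Ratios run from 1.01 to 1.61 at P1 and from 1.00 to 1.35 at P7, with the lowest median over partners for Jund at both ages (1.05 and 1.06).

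Genes differed in how far they were co-detected. Junb had the highest median ratio with the other 9 in both libraries, 1.27 at P1 and 1.19 at P7. Jund was lowest at both ages, with 1.05 and 1.06, and Nr4a1 went from 1.20 at P1 to 1.06 at P7. Of the P1 cells of the 10 gates with a Fos UMI, 63.3% also had Egr1, against 28.9% of those without Fos. At P7 the shares were 21.3% and 16.9%. These shares also hold differences between gates, which the ratio does not. The median ratio within single gates was above 1 in all 10 at both ages, and highest in epithelium-like cells (1.71 over 27 pairs at P1 and 1.33 over 13 pairs at P7). Single pairs were less uniform. At P7, 5 of 10 pairs were above 1 in neuron-like cells (median 1.03), 7 of 11 in osteoblast-like and 17 of 26 in macrophage-like cells, against 43 of 45 in glia-like cells. A gate that holds more than 1 kind of cell can also give ratios above 1, and this part was not tested. Among genes outside the set, chosen after the tables were seen, Fos paired with Actb, Ppia and Hspa8 at 1.00, 0.99 and 1.00 at P1 and at 0.99, 1.00 and 0.99 at P7. With the inducible heat shock gene Hspa1b, Fos paired at 1.13 and 1.23, but Egr1 paired with Hspa1b at 0.89 at P1 and 1.34 at P7. With the heat shock genes Hsp90aa1, Hspb1, Hspa5 and Dnajb1, Fos paired at 0.99 to 1.07 at P1 and at 1.00 to 1.03 at P7.

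Other genes of the early response differed less, and not in 1 direction over all cells. Of 40 further immediate early and early response genes in the files, 25 reached 10 CPM, of which 3 were at least 2-fold lower at P7 and 3 at least 2-fold higher, against 6.57% and 9.74% of all genes, with a median log2 ratio of 0.17 against 0.13 over all genes. The lowest were Nfkbiz (15.5 and 3.87 CPM), Cebpd (log2 ratio -1.31) and the antiproliferative gene Btg2 (-1.20), and the highest Myc (1.39), Plk2 (1.36) and Ier5l (1.05). Within gates, where other members of the list can reach 10 CPM, more of them were lower. The share at least 2-fold lower was above that of all genes tested in 9 of 10 gates, neuron-like cells being the exception (2 of 26, against 25.9%). It was 10 of 27 in glia-like cells (against 9.59%), 8 of 28 in macrophage-like cells (against 5.82%) and 7 of 25 in Gpc3-Dcn fibroblast-like cells (against 7.5%). The median log2 ratio of the list was below that of all genes in 7 of 10 gates, for example -0.37 against 0.15 in epithelium-like cells, and above it in neuron-like cells (1.19 against -0.25). Of 16 upstream regulators at 10 CPM or more, Map2k4 (log2 ratio -1.27) and Rps6ka3 (-1.01) were at least 2-fold lower, against 6.57% of all genes. Atf1 (1.08) was at least 2-fold higher, against 9.74% of all genes. The median of the 16 was 0.15, and with so few genes these counts are a description. The next in rank were Atf2 (-0.75), Mapk3 (0.98) and Map2k1 (0.96). The AP-1 partners Jdp2 and Maf were higher at P7, with log2 ratios of 0.86 and 0.68. The gene for serum response factor itself, Srf, which was named after its values were seen, was at 10.4 and 13.0 CPM.

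Heat shock genes and cell quality are set beside these results because both can move with tissue digestion. Of 11 heat shock genes, none was at least 2-fold lower at P7, against 6.57% of all genes. Hspa1b and Hspb1 were at least 2-fold higher (log2 ratios 1.74 and 1.24), against 9.74% of all genes. The median log2 ratio of the 11 was -0.05. The lowest were Hsp90ab1 (-0.89), Dnajb1 (-0.80) and Hsph1 (-0.42), and the third highest was Hspe1 (0.43). Their summed level, in which Hsp90ab1 was the largest part over all cells (4342 and 2347 CPM), was lower at P7 in all 10 gates. The median log2 ratio of the heat shock genes was above 0 in 6 of 10 gates, so the sum and the median differ in direction there. In glia-like cells the sum was 4867 and 4106 CPM and the median log2 ratio 0.32. Mitochondrial UMIs took a median of 6.77% (P1) and 8.51% (P7) per cell, a share that was higher at P7 in 9 of 10 gates. Within 17 bins of mitochondrial share or UMIs per cell, over all cells and within glia-like and Gpc3-Dcn fibroblast-like cells, the immediate early sum was lower at P7 in 17. In cells with 5% to 10% mitochondrial UMIs it was 3840 and 1600 CPM. Of 5 reference genes at 10 CPM or more, 1 was at least 2-fold lower, against 6.57% of all genes. This was Actb, itself a target of serum response factor (log2 ratio -1.24), and the highest was Ppia (0.94). The part of cell dissociation in the levels and in their difference between the libraries was not tested.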

How the data were processed

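The data were 2 droplet-based (10x Chromium 3′, version 3 chemistry) libraries of dissociated rat cochlear duct cells, 1 per age, each loaded to capture 5000 cells. The deposited counts were whole-number UMI counts per gene and barcode, with 1 tag at the 3′ end per transcript, so levels are not scaled to gene length. Where levels or sums of different genes are set side by side, they compare captured UMIs only. The authors made the counts with Cell Ranger 3.1.0 on the rn6 build. The authors then used Seurat 3.1.1. The cell limits of the study were applied (over 500 and under 5000 genes, at least 500 UMIs, under 25% mitochondrial UMIs), which kept 12779 of 14068 and 12581 of 14501 barcodes. No cell types came with the files. The libraries shared 60 barcode sequences of the 28569 barcodes in all.

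Cells were gated on marker lists. A cell entered a gate when its markers averaged at least 2 times their mean level (each capped at 20), at least 3 were detected, and no second list reached 0.5 of the first. This rule was written after the tables were seen, its first run also showed the levels of the 10 genes, and it was kept as the only main setting tried. Doublets called by Scrublet (scanpy 1.11.5; 4.68% and 6.12% of cells) stayed in, and were removed as an alternative. Counts were summed per library and gate and scaled to CPM. Ratios carry exact conditional binomial intervals (SciPy 1.17.1) and levels exact Poisson ones, and shares Clopper-Pearson ones. PCR copies are removed by UMIs, and the intervals cover counting error only. A gene entered the background at 10 CPM or more in the higher library with at least 20 UMIs there, a minimum added after the design. The 10 genes were counted at any level. Cells were thinned to 2000 UMIs without replacement for detection. Pairs needed an expected count of 5. The code was tested on simulated data.

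The 10 genes are all named. Of the other lists, the 3 highest and 3 lowest ratios are named among genes of at least 10 CPM, and the 5 genes most like the set in each library (at least 50 CPM in a gate), with exceptions said where they stand. The genes, the lists and the tests were chosen with earlier results of these data known. The bins of mitochondrial share and UMIs and the dividing-cell threshold were set after the tables were seen. Alternatives changed the cells kept, the scaling, the gates, the gene minimum and the thinning. As added alternatives, a gate score of 1.5 and no UMI minimum were chosen after seeing the data. A clustering (igraph 0.11.9, without the listed genes) stood in for the gates as another alternative. Some genes of the marker and comparison lists are not reported here.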

Additional observations from a re-analysis of the deposited data

Results flagged for a closer look

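In 4 combinations of gene and gate the counting interval lay above 0 although the gene was lower at P7 over all cells, and the difference between gates was not tested, since each age was 1 library. Jun was higher at P7 in Aldh1a2-Irx3 mesenchyme-like cells (log2 ratio 0.65) and in neuron-like cells (0.36). Ier2 was higher in neuron-like cells (0.65). Dusp1 was higher in glia-like cells (0.49). The neuron-like values rest on 69 P7 cells, in which the glial markers (4953 CPM) summed to more than the neuronal ones (2299 CPM). In Aldh1a2-Irx3 mesenchyme-like cells the leading genes differed between the ages, and the part of this in the Jun value was not tested.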

How the results depend on the processing

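The log2 ratio of the summed genes was -1.21 and moved beyond its counting interval to -1.19 with all barcodes, -1.27 with cells under 10% mitochondrial UMIs, -1.29 with the total taken without mitochondrial, haemoglobin and ribosomal protein genes, -1.33 with the median gene set to 0, and -1.30 with gates weighted equally. The number of genes at least 2-fold lower was 4 to 7 over the alternatives, and 1 was higher in each. Of the gene and gate combinations, 53.3% to 59.0% were at least 2-fold lower. The share of cells with at least 5 genes depends on depth by construction. At P1 and P7 it was 11.6% and 1.21% at 1000 UMIs, 56.2% and 30.2% at 4000 UMIs, 70.1% and 55.4% without thinning, and 32.3% and 7.66% under 10% mitochondrial UMIs. The median co-detection ratio at P1 and P7 was 1.27 and 1.13 at 1000 UMIs, 1.13 and 1.07 at 4000 UMIs, 1.19 and 1.09 under 10% mitochondrial UMIs, and 1.21 and 1.10 without called doublets. Without thinning it was 1.12 at P1 and 1.11 at P7, so the gap between the libraries nearly closed. With a gate score of 1.5 it was 1.20 and 1.12. With clusters in place of gates, 2 directions reversed, the cause of which was not tested. The summed genes had a log2 ratio of 0.0095 in neuron-like clusters, and Nr4a1 one of -0.50 in Otor-high fibrocyte-like clusters. In that alternative, glia-like cells and the 3 named mesenchymal classes were made mostly of different clusters at P1 and P7 (clusters 6 and 13 for glia, 5 and 16 for Otor-high fibrocytes, 3 and 20 for Gpc3-Dcn fibroblasts, 2 and 19 for Aldh1a2-Irx3 mesenchyme), and osteoblast-like cells had none. Of 737 values within gates, 626 stayed inside their counting interval, 109 moved without reversing and 2 reversed. The osteoblast gate with 4 markers and the neuron gate under 10% mitochondrial UMIs held under 50 cells in a library and gave no value. No paired analysis was possible because each age was 1 library, and no replicate could be left out. Depth limits the small gates most, where Nr4a1 and Atf3 rest on few UMIs.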
